A study of Mus musculus with 11 samples.

Results

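Axon guidance ligands and receptors were taken as every gene whose symbol belongs to the semaphorins of classes 3 to 7, the plexins other than Plxnd1, the neuropilins, the ephrins, the Eph receptors, the Slits, the Robo receptors, the netrins, Dcc or Unc5a to Unc5c. Of the 46078 genes counted, 66 had such a symbol, made up of 7 secreted semaphorins, 13 membrane-bound semaphorins, 10 plexins and neuropilins, 8 ephrins, 14 Eph receptors, 3 Slits, 4 Robo receptors, 3 netrins and 4 Dcc and Unc5 receptors. A further symbol that met the rule, Ntn3, was not analysed here. The genes were chosen by name alone, with no measured value in the rule.

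Polyadenylated RNA was sequenced in 11 libraries from embryos of the CD-1 strain, an outbred mouse stock, to ask which transcripts differ when the chromatin protein L3mbtl3 is raised or removed in the developing neocortex. L3mbtl3 gain libraries (n = 3) were GFP-positive cells sorted at E15.5 from wild-type embryos, electroporated in utero at E12.5 with the pCIG2 plasmid carrying L3mbtl3. The pCIG2 controls (n = 3) were prepared alike with the empty plasmid, so both groups share the surgery, the plasmid backbone and the selection of GFP-positive cells. Whole microdissected dorsal telencephalon at E12.5 gave 2 libraries labelled L3mbtl3 -/-, set against E12.5 controls made up of 2 L3mbtl3 +/- libraries and 1 wild-type library, so that 2 of the 3 controls also lacked an L3mbtl3 allele by label. Embryo pooling was not described, and p-values measure the spread between these samples, which may be technical in part.

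Growth cones read guidance ligands through receptors that steer them by attraction or repulsion. Secreted class 3 semaphorins bind neuropilins, which signal through plexin-A partners, whereas membrane-bound semaphorins bind plexins directly. Ephrins and Eph receptors signal in both directions at cell contacts, Slits repel through Robo receptors, and netrin 1 acts through Dcc and the Unc5 receptors. In the developing cortex the same families also guide the migration of newborn neurons and shape the vessels that grow in beside them.

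The library totals lay between 16527551 and 26658718 counts, so that 3 counts, the level a count of 0 allows, corresponded to 0.113 to 0.182 CPM. These floors cover counting error only. L3mbtl3 itself was detected at 1518, 1262 and 898 CPM in gain cells, against 54.0, 50.3 and 60.3 CPM in pCIG2 cells. In the libraries labelled knockout it was detected at 67.2 and 70.5 CPM, against 55.7, 58.0 and 58.3 CPM in E12.5 controls, a difference of 0.27 log2 units (edgeR adjusted p = 0.0128, SE 0.0539). The label of these 2 libraries was therefore not matched by a lower transcript level, and they are called the libraries labelled knockout throughout. By Xist and Y-linked counts, gain replicates 1 and 3 and labelled knockout replicate 2 were female and every other library was male.

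The family was broadly transcribed in every group. Mean levels exceeded 1 CPM for 56 of the 66 genes in gain cells, 58 in pCIG2 cells, 61 in the libraries labelled knockout and 61 in E12.5 controls. Summed over the 66 genes, the level was 9598 to 10200.8 CPM in gain libraries and 8606 to 9455 CPM in pCIG2 libraries. The sum was 4284 to 4327 CPM in the libraries labelled knockout and 4380.0 to 4571 CPM in E12.5 controls. Both sorted E15.5 groups thus lay above both E12.5 groups, with no overlap.

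Per kilobase of exon, the B-class ephrins led in both control groups. Efnb2, a transmembrane ligand of EphB receptors and Epha4, had the highest mean level in pCIG2 cells at 135 CPM per kb, followed by its relative Efnb1 at 93.6, the receptor Epha3 at 73.1, and the semaphorin receptors Plxna2 at 54.4 and Plxna4 at 54.0 CPM per kb. E12.5 controls were led by Efnb1 at 62.7 CPM per kb, then Efnb2 at 49.1, Epha4 at 48.1, and the class B plexins Plxnb2 at 46.6 and Plxnb1 at 26.0 CPM per kb. At the other end, Ntn5 and Plxnb3 stayed below 0.5 CPM in every library and passed the count filter in none of the comparisons.

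**Figure D1:**
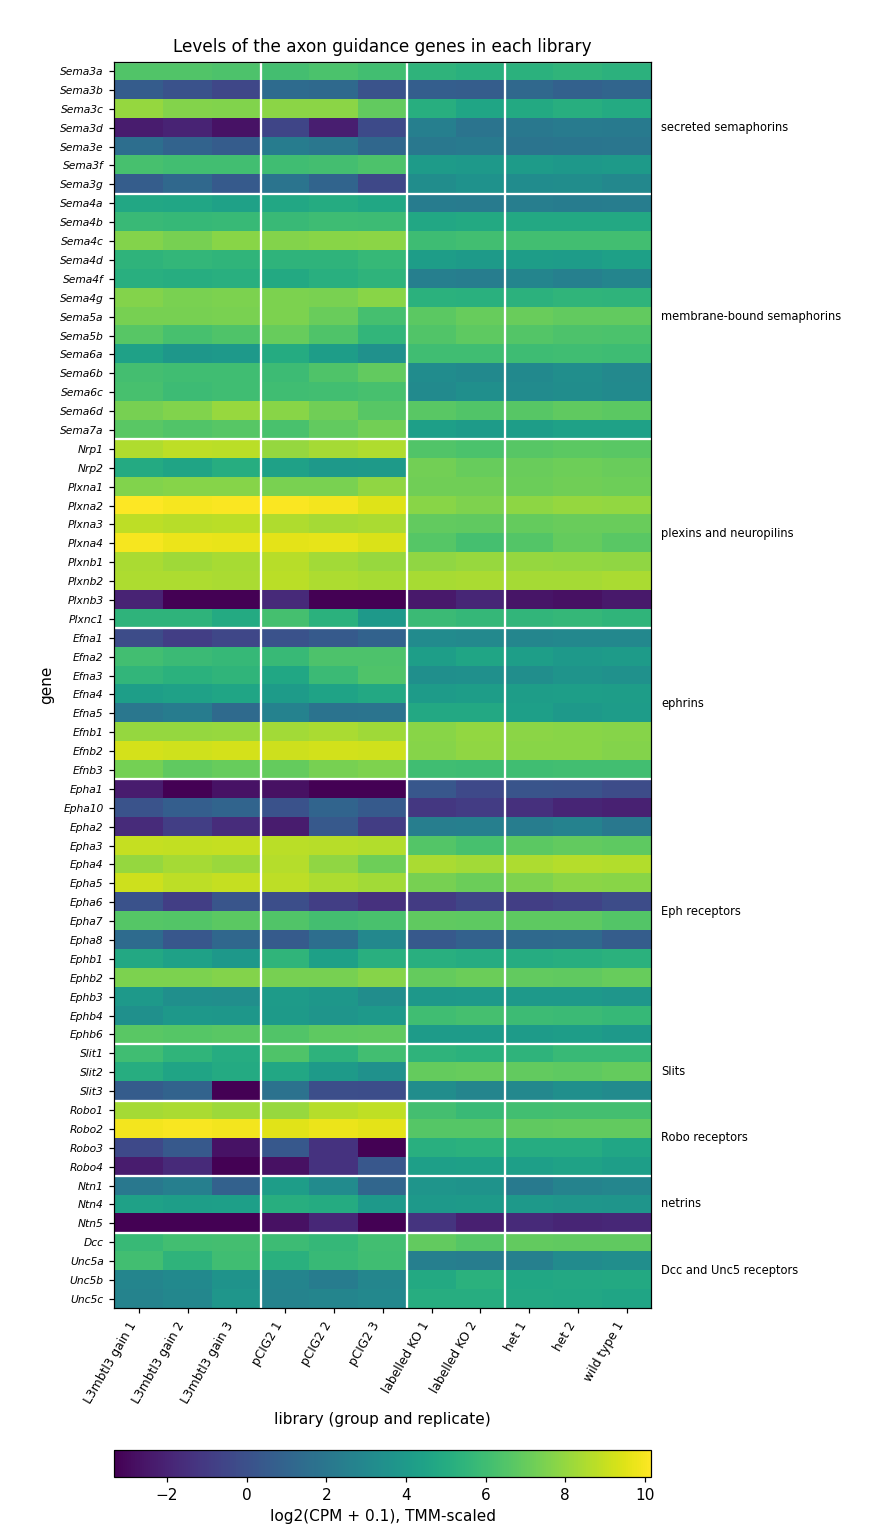
Level of each of the 66 genes (rows, by family) in each of the 11 libraries (columns, by group), as log2 of CPM plus 0.1, from dark (low) to yellow (high). Within a group the columns look alike for most genes, while Robo2, Plxna4 and Efnb2 are higher and Nrp2, Slit2 and Robo3 lower in the pCIG2 columns than in the E12.5 control columns.

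Sorted pCIG2 cells at E15.5 and E12.5 control tissue expressed different guidance repertoires. Sorted cells held more of most membrane-bound semaphorins, plexin-A receptors, Robo1, Robo2 and most ephrins, and less of Slit2, Slit3, Nrp2, Robo3, Robo4 and the Unc5b and Unc5c receptors. Of the 64 genes that passed the count filter, 32 rose, 17 fell and 15 did not pass the test, against 31.1% of all 15968 tested genes that rose and 31.3% that fell (62.3% called in all). The median log2 difference was 0.55 over these 64 genes and -0.03 over all tested genes. Epha1, Epha2, Epha6, Robo3, Robo4 and Sema3d passed the filter only through the E12.5 controls and Epha10 only through pCIG2 cells, so no test is given for them. The other 57 held 31 genes that rose, 12 that fell and 14 not called, and of the 13161 genes that passed through both groups 36.2% rose and 26.5% fell. Age, electroporation, sorting and the L3mbtl3 +/- genotype of 2 controls changed together in this comparison and cannot be told apart. In bulk samples, fewer cells of a type and less RNA per cell cannot be told apart either.

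Among the 7 secreted semaphorins, 3 rose and 2 fell, and the 2 include Sema3d, which is given no test. Sema3c stood at 223, 224 and 119 CPM in pCIG2 cells, against 29.0, 35.3 and 30.1 CPM in E12.5 controls, which places every sorted library far above every tissue library. Sema3c, a neuropilin ligand that acts on cortical axons in rodents, rose by 2.59 log2 units (edgeR adjusted p = 0.000253, SE 0.257). Sema3f stood at 64.1, 69.1 and 84.7 CPM in pCIG2 cells, against 16.7, 14.3 and 16.1 CPM in E12.5 controls. Sema3f, the repellent ligand of Nrp2, rose by 2.21 log2 units (edgeR adjusted p = 5.32e-05, SE 0.137), with no overlap between groups. The repellent Sema3a, a ligand of Nrp1, had 71.2, 81.1 and 68.3 CPM in pCIG2 cells, against 38.6, 45.9 and 39.9 CPM in E12.5 controls, and rose by 0.83 log2 units (edgeR adjusted p = 0.000745, SE 0.107). Sema3d had 12, 2 and 13 counts in pCIG2 libraries, against 119, 87 and 100 counts in E12.5 controls, with no overlap. Sema3g, known from vessels, fell by 2.12 log2 units (edgeR adjusted p = 0.0105, SE 0.512), at 3.57, 1.899 and 0.657 CPM in pCIG2 cells, against 9.41, 9.63 and 7.79 CPM in E12.5 controls. Sema3b and Sema3e, both low, were not called, and their groups overlapped.

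Of the 13 membrane-bound semaphorins, 9 rose and 1 fell. Sema6b stood at 60.3, 85.8 and 121 CPM in pCIG2 cells, against 8.19, 9.85 and 8.02 CPM in E12.5 controls. Sema6c stood at 64.0, 67.3 and 76.0 CPM in pCIG2 cells, against 9.07, 9.52 and 8.52 CPM in E12.5 controls. In both genes the lowest sorted library lay several-fold above the highest tissue library. Sema6b and Sema6c, transmembrane ligands of plexin-A receptors, rose by 3.36 (edgeR adjusted p = 0.000121, SE 0.273) and 2.94 (edgeR adjusted p = 2.09e-05, SE 0.111) on the log2 scale. Sema7a, a lipid-anchored semaphorin that binds Plxnc1, averaged 118 ± 38.6 CPM in pCIG2 cells and 20.0 ± 1.64 CPM in E12.5 controls (SD, n = 3 each) and rose by 2.56 log2 units (edgeR adjusted p = 0.000249, SE 0.253). Within class 4, Sema4a, Sema4b, Sema4c, Sema4d, Sema4f and Sema4g all rose. The 3 of them with the most change were Sema4f at 2.47, Sema4a at 2.44 and Sema4g at 2.16 on the log2 scale (edgeR adjusted p = 8.99e-05, 3.69e-05 and 3.27e-05). Sema6a was the exception. Sema6a stood at 31.1, 18.3 and 11.1 CPM in pCIG2 cells, against 62.4, 65.0 and 62.1 CPM in E12.5 controls, and it fell by 1.64 log2 units (edgeR adjusted p = 0.00545, SE 0.339). Sema5a, Sema5b and Sema6d were not called. Sema6d, for example, had 217, 149.6 and 102 CPM in pCIG2 cells, against 99.6, 117 and 108 CPM in E12.5 controls, and the sorted libraries of all 3 genes overlapped the tissue values.

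Of the 9 plexins and neuropilins tested, 6 rose and 1 fell. Plxna4 stood at 787, 819 and 677 CPM in pCIG2 cells, against 95.3, 123 and 104 CPM in E12.5 controls. Plxna4, the partner through which Nrp1 transmits the Sema3a signal, rose by 2.82 log2 units (edgeR adjusted p = 2.80e-05, SE 0.131). Plxna2, a receptor of class 6 semaphorins, had 1096, 981 and 728 CPM in pCIG2 cells, against 230.4, 263 and 256 CPM in E12.5 controls, and rose by 1.91 log2 units (edgeR adjusted p = 0.000134, SE 0.160). Every sorted library exceeded every tissue library in both genes. The neuropilins went opposite ways. Nrp1 stood at 256, 321 and 376 CPM in pCIG2 cells, against 102, 108 and 103 CPM in E12.5 controls. Nrp2 stood at 21.0, 15.7 and 16.1 CPM in pCIG2 cells, against 135, 144 and 135 CPM in E12.5 controls. Nrp1, the Sema3a receptor, rose by 1.61 log2 units (edgeR adjusted p = 0.000167, SE 0.143), whereas Nrp2, the Sema3f receptor, fell by 2.96 log2 units (edgeR adjusted p = 2.78e-05, SE 0.132), again without overlap. Plxna1, Plxna3 and Plxnb1 also rose. Plxna3, a further plexin-A receptor, had 370.3, 330.4 and 346 CPM in pCIG2 cells, against 123, 137 and 133 CPM in E12.5 controls, well apart. Plxnb1 sat at the threshold, and neither it nor Plxna1 kept its call under every alternative setting. Plxnb2 and Plxnc1 were not called.

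Of the 8 ephrins, 5 rose and 2 fell. Efnb2 stood at 565, 597 and 585 CPM in pCIG2 cells, against 219, 216 and 203 CPM in E12.5 controls. Efnb2 rose by 1.46 log2 units (edgeR adjusted p = 3.11e-05, SE 0.0721), with a gap between the groups many times the spread within them. Efnb1 rose by a smaller 0.58 log2 units (edgeR adjusted p = 0.00103, SE 0.0816). The A-class ephrins, anchored by lipid and bound mainly by EphA receptors, diverged although Efna1, Efna3 and Efna4 lie side by side on chromosome 3 (GRCm38 89271733 to 89338028). Efna3 stood at 25.8, 57.8 and 87.7 CPM in pCIG2 cells, against 10.1, 12.6 and 11.3 CPM in E12.5 controls, and it rose by 2.33 log2 units (edgeR adjusted p = 0.00312, SE 0.423). Efna1 stood at 0.956, 1.31 and 1.81 CPM in pCIG2 cells, against 7.14, 7.88 and 7.83 CPM in E12.5 controls, and it fell by 2.49 log2 units (edgeR adjusted p = 0.000336, SE 0.267). Efna4, at 16.6 to 28.0 CPM in pCIG2 cells and 17.8 to 18.6 CPM in E12.5 controls, overlapped and was not called. Efna5, a repellent in topographic maps, had 6.14, 3.44 and 3.56 CPM in pCIG2 cells, against 19.5, 15.49 and 17.4 CPM in E12.5 controls, and fell by 1.99 log2 units (edgeR adjusted p = 0.000766, SE 0.259). Efna2 and Efnb3 rose as well. Efna2 had 54.2, 83.3 and 83.5 CPM in pCIG2 cells, against 18.7, 15.7 and 16.7 CPM in E12.5 controls. Efnb3 had 124, 166 and 187 CPM in pCIG2 cells, against 65.1, 67.4 and 66.7 CPM in E12.5 controls, and neither gene overlapped between groups.

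The Eph receptors were mixed, with 5 risen, 4 fallen and 5 not called of 14. These counts include Epha1, Epha2, Epha6 and Epha10, which passed the filter through a single group and are given no test. Epha3 stood at 436, 413 and 391 CPM in pCIG2 cells, against 108, 121 and 113 CPM in E12.5 controls. Epha3, a receptor of A-class ephrins, rose by 1.86 log2 units (edgeR adjusted p = 2.69e-05, SE 0.0823). Epha5, another, rose by 0.84 log2 units (edgeR adjusted p = 0.00276, SE 0.147), at 456, 356 and 318 CPM in pCIG2 cells, against 190.0, 227 and 217 CPM in E12.5 controls. Ephb6 stood at 89.4, 114 and 117 CPM in pCIG2 cells, against 16.7, 18.0 and 15.7 CPM in E12.5 controls, and it rose by 2.67 log2 units (edgeR adjusted p = 3.24e-05, SE 0.132). Epha10, which like Ephb6 lacks kinase activity, had 0.956, 1.96 and 1.31 CPM in pCIG2 cells, against 0.272, 0.164 and 0.137 CPM in E12.5 controls, low in every library. Ephb4, a receptor of Efnb2 known from veins, had 15.9, 12.8 and 15.2 CPM in pCIG2 cells, against 61.2, 58.0 and 52.6 CPM in E12.5 controls, and fell by 1.97 log2 units (edgeR adjusted p = 5.19e-05, SE 0.122). Epha2, an epithelial receptor, had 2, 21 and 8 counts in pCIG2 libraries, against 151, 114 and 90 counts in E12.5 controls. Epha1 had 1, 0 and 0 counts in pCIG2 libraries, against 30, 18 and 17 counts in E12.5 controls, with too few counts for a fold change. Epha4, which binds ephrins of both classes, was not called, at 402, 238 and 147 CPM in pCIG2 cells, against 365, 406 and 393 CPM in E12.5 controls (log2 difference -0.56, edgeR adjusted p = 0.177). Its sorted libraries reached on both sides of the tissue values. Ephb1 likewise overlapped, at 20.2 to 45.9 CPM in pCIG2 cells and 32.6 to 39.2 CPM in E12.5 controls. Ephb2 rose and Epha7 fell, and Epha6, Epha8 and Ephb3, all at low levels, were not called.

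For the Slit and Robo system, the ligands were lower or uncalled and the receptors Robo1 and Robo2 were higher. Robo3 and Robo4 passed the filter only through the E12.5 controls and are given no test. Slit2 stood at 26.7, 16.1 and 11.2 CPM in pCIG2 cells, against 123, 112 and 124 CPM in E12.5 controls. Slit2, a secreted repellent, fell by 2.73 log2 units (edgeR adjusted p = 0.000384, SE 0.301). Slit3 fell too, by 2.43 on the log2 scale (edgeR adjusted p = 0.00717), and Slit1 was not called, at 87.2, 42.1 and 67.5 CPM in pCIG2 cells, against 44.0, 53.3 and 54.0 CPM in E12.5 controls. Robo2 stood at 756, 861 and 783 CPM in pCIG2 cells, against 115, 119.7 and 122 CPM in E12.5 controls. Robo1 stood at 275, 401 and 467 CPM in pCIG2 cells, against 68.4, 69.2 and 69.0 CPM in E12.5 controls. These 2 receptors of repulsive Slit signals, which neighbour each other on chromosome 16, rose by 2.75 (edgeR adjusted p = 2.09e-05, SE 0.0846) and 2.47 (edgeR adjusted p = 0.000107, SE 0.194) on the log2 scale, without overlap between groups. Robo3, known for the crossing of the midline by commissural axons, had 24, 5 and 0 counts in pCIG2 libraries, against 969, 600 and 544 counts in E12.5 controls. Robo4, known from endothelium and next to Robo3 on chromosome 9, had 1, 5 and 21 counts in pCIG2 libraries, against 563, 399 and 416 counts in E12.5 controls. The sorted libraries of both genes ranged from none or hardly any reads to about 1 CPM.

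Netrin receptors moved in both directions. Unc5a stood at 37.2, 54.8 and 65.0 CPM in pCIG2 cells, against 5.71, 8.98 and 9.94 CPM in E12.5 controls, and Unc5a rose by 2.68 log2 units (edgeR adjusted p = 0.000344, SE 0.287). Unc5b, an Unc5 receptor also found on vessels, fell by 2.13 log2 units (edgeR adjusted p = 0.000107, SE 0.168), at 6.79, 4.93 and 7.06 CPM in pCIG2 cells, against 26.1, 27.6 and 29.0 CPM in E12.5 controls. Unc5c stood at 6.54, 6.94 and 7.61 CPM in pCIG2 cells, against 28.1, 27.0 and 24.6 CPM in E12.5 controls, and Unc5c fell by 1.92 log2 units (edgeR adjusted p = 6.36e-05, SE 0.127). The attractive netrin receptor Dcc fell by 0.99 log2 units (edgeR adjusted p = 0.000606, SE 0.122), at 60.6, 49.98 and 68.5 CPM in pCIG2 cells, against 123, 118 and 117 CPM in E12.5 controls. None of these receptors overlapped between groups. The ligand Ntn1 was not called, and its sorted libraries, at 18.3, 9.14 and 2.08 CPM, lay on both sides of the 4.62, 6.46 and 7.15 CPM of E12.5 controls. Ntn4, a netrin of basement membranes, was called higher (edgeR adjusted p = 0.0286) although its groups overlapped, and it kept that call under 9 of 15 alternative settings.

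**Figure D2:**
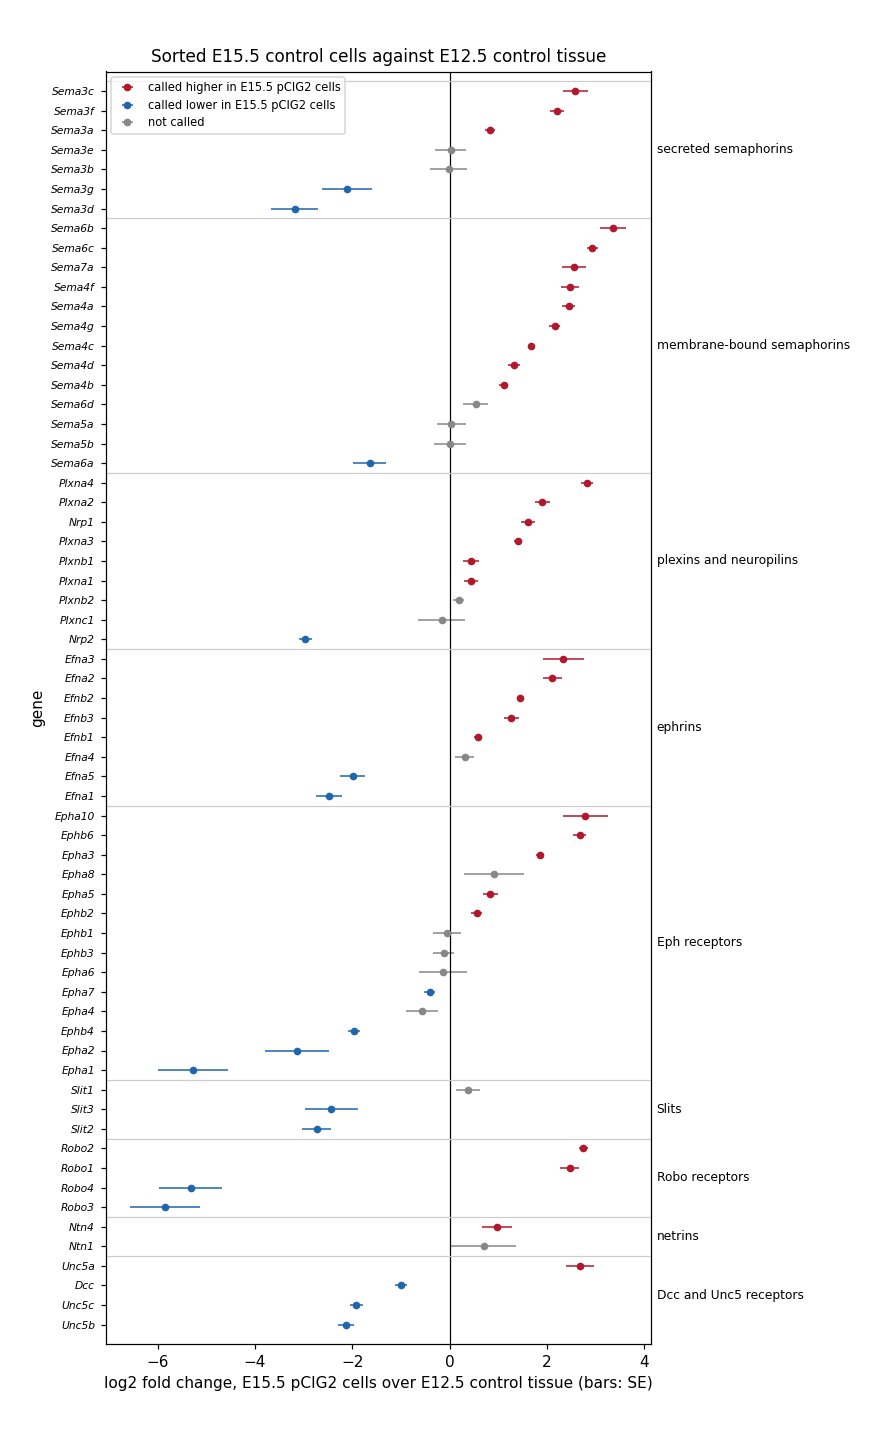
Log2 difference (pCIG2 cells at E15.5 over E12.5 controls) of each of the 64 tested genes by family, with red points for genes called higher, blue for genes called lower, grey for genes not called, and bars of 1 SE. Membrane-bound semaphorins lie mostly to the right, with Sema6b at 3.36, and Slit2, Slit3, Robo3, Robo4 and Nrp2 lie to the left. Epha1, Epha2, Epha6, Epha10, Robo3, Robo4 and Sema3d are drawn although they passed the filter through a single group, so their colours are not read as tests.

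Beyond these families, 44 of 68 other axon guidance genes rose and 6 fell (73.5% called). Over all tested genes, 31.1% rose and 31.3% fell (62.3% called). Of the 67 that passed the filter through both groups, 43 rose and 6 fell, against 36.2% and 26.5% of all such genes. The median log2 difference of the 68 was 0.81, against -0.03 over all tested genes. The most changed were the axonal adhesion molecule Cntn2 at 3.51, the netrin receptor Unc5d at 3.48, the adhesion molecule Chl1 at 2.72 and the Cdk5 activator Cdk5r1 at 2.69 on the log2 scale (edgeR adjusted p = 4.09e-05, 2.09e-05, 0.000137 and 0.000101). Lower were the adaptor Nck1 at -2.08, the exchange factor Dock1 at -1.88 and the class 3 semaphorin receptor Plxnd1 at -1.72, prominent in endothelium (edgeR adjusted p = 0.00127, 0.00895 and 0.00127).

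Markers of cell types differed between the same groups. Summed endothelial and pericyte markers were 15.4 to 21.5 CPM in pCIG2 cells and 386 to 463 CPM in E12.5 controls. Of these genes, 7 of 7 were called lower (1 of them tested only through the E12.5 controls), beside the lower Ephb4, Unc5b and Sema3g. Meningeal markers were 8.01 to 59.8 CPM in pCIG2 cells and 1571 to 1751 CPM in E12.5 controls. They were lower in 6 of 6 genes (2 of them tested only through those controls), beside the lower Slit3. Cajal-Retzius markers were 8.84 to 20.2 CPM in pCIG2 cells and 296 to 365 CPM in E12.5 controls (4 of 4 lower, 1 of them so), and cortical hem markers were 1.26 to 3.17 CPM in pCIG2 cells, with Wnt3a at 0, and 123 to 138 CPM in E12.5 controls, and all 5 passed the filter only through those controls. Beside the genes that rose, pan-neuronal markers were 5569 to 7549 CPM in pCIG2 cells and 1969 to 2178 CPM in E12.5 controls (7 of 7 higher). Upper-layer markers were 1764 to 2566 CPM in pCIG2 cells and 288 to 321 CPM in E12.5 controls (4 of 4 higher), and apical progenitor markers were 618 to 1780.3 CPM in pCIG2 cells and 2719 to 2792 CPM in E12.5 controls (5 of 8 lower). Choroid plexus markers were lower in 6 of 6 genes and erythroid markers in 5 of 5 (5 and 2 tested only through the E12.5 controls). Microglial markers were lower in 3 of 6. Intermediate progenitor markers were higher in 2 and lower in 1 of 5, and deep-layer markers higher in 2 of 4. Ventral telencephalic markers were higher in 2 of 8, at 14.4 to 820 CPM in pCIG2 cells and 37.8 to 63.3 CPM in E12.5 controls. The part of all these markers in the guidance results was not tested. Of the 49 called genes, 45 kept their call and direction in all 15 alternative settings, the others being Epha7, Ntn4, Plxna1 and Plxnb1. The 49 and the 45 include Epha1, Epha2, Epha10, Robo3, Robo4 and Sema3d, which passed the filter only through the group where they were higher. Scaling by library totals alone moved the median of all tested genes to -0.30 and that of the 64 genes to 0.28 on the log2 scale, with 29 risen and 17 fallen.

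In E12.5 tissue labelled L3mbtl3 knockout, a small set of guidance genes differed from controls. The ligands Efna5 and Ntn1 and the receptors Unc5c and Ephb4 were higher, and the receptors Robo2, Nrp1, Epha4 and Plxna2 were lower. Only Ntn1 changed by more than 2-fold. That made 8 of the 63 genes that passed the filter, or 12.7%, against 7.41% of all 16361 tested genes (3.63% higher and 3.78% lower). The median log2 difference was -0.01 over the 63 genes and 0.00 over all tested genes.

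Both called ligands rose. Efna5 stood at 28.5 and 27.8 CPM in the libraries labelled knockout, against 19.5, 15.49 and 17.4 CPM in E12.5 controls. The lowest labelled knockout library was well above the highest control, and Efna5 rose by 0.68 log2 units (edgeR adjusted p = 0.00127, SE 0.0897). Ntn1 stood at 13.2 and 11.9 CPM in the libraries labelled knockout, against 4.62, 6.46 and 7.15 CPM in E12.5 controls. Ntn1, the secreted ligand of Dcc and Unc5 receptors, rose by 1.06 log2 units (edgeR adjusted p = 0.00400, SE 0.163), again with no overlap between groups. Unc5c stood at 33.5 and 34.1 CPM in the libraries labelled knockout, against 28.1, 27.0 and 24.6 CPM in E12.5 controls, and this netrin receptor rose by 0.35 log2 units (edgeR adjusted p = 0.0115, SE 0.0688). The other netrin receptors, Dcc, Unc5a and Unc5b, did not pass the test, and Unc5b, for one, had 29.2 and 38.3 CPM in the libraries labelled knockout, against 26.1, 27.6 and 29.0 CPM in E12.5 controls. Ephb4 stood at 66.0 and 71.4 CPM in the libraries labelled knockout, against 61.2, 58.0 and 52.6 CPM in E12.5 controls, and Ephb4 rose by 0.26 log2 units (edgeR adjusted p = 0.0375, SE 0.0675).

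The 4 receptors that fell did so by small amounts. Robo2 stood at 98.5 and 96.8 CPM in the libraries labelled knockout, against 115, 119.7 and 122 CPM in E12.5 controls. The groups did not overlap, and Robo2 fell by 0.28 log2 units (edgeR adjusted p = 0.00332, SE 0.0451). Nrp1 stood at 90.2 and 82.3 CPM in the libraries labelled knockout, against 102, 108 and 103 CPM in E12.5 controls, and Nrp1 fell by 0.27 log2 units (edgeR adjusted p = 0.00933, SE 0.0525). Epha4 stood at 343 and 314 CPM in the libraries labelled knockout, against 365, 406 and 393 CPM in E12.5 controls, and Epha4 fell by 0.24 log2 units (edgeR adjusted p = 0.0262, SE 0.0550). Plxna2 stood at 215 and 189 CPM in the libraries labelled knockout, against 230.4, 263 and 256 CPM in E12.5 controls, and Plxna2 fell by 0.30 log2 units (edgeR adjusted p = 0.0441, SE 0.0717). In each of these receptors both labelled knockout libraries lay below all 3 controls, and for Epha4 and Plxna2 the gap was small. The related EphA receptors Epha3 and Epha5 had log2 differences of -0.42 (edgeR adjusted p = 0.0520, SE 0.0990) and -0.45 (edgeR adjusted p = 0.0747, SE 0.104) and did not pass the test. Neither did any of the 7 secreted or 13 membrane-bound semaphorins, whose log2 differences ran between -0.39 and 0.25, by edgeR. Of these 20, 2 had an unadjusted p under 0.05, against 22.0% of all tested genes.

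**Figure D3:**
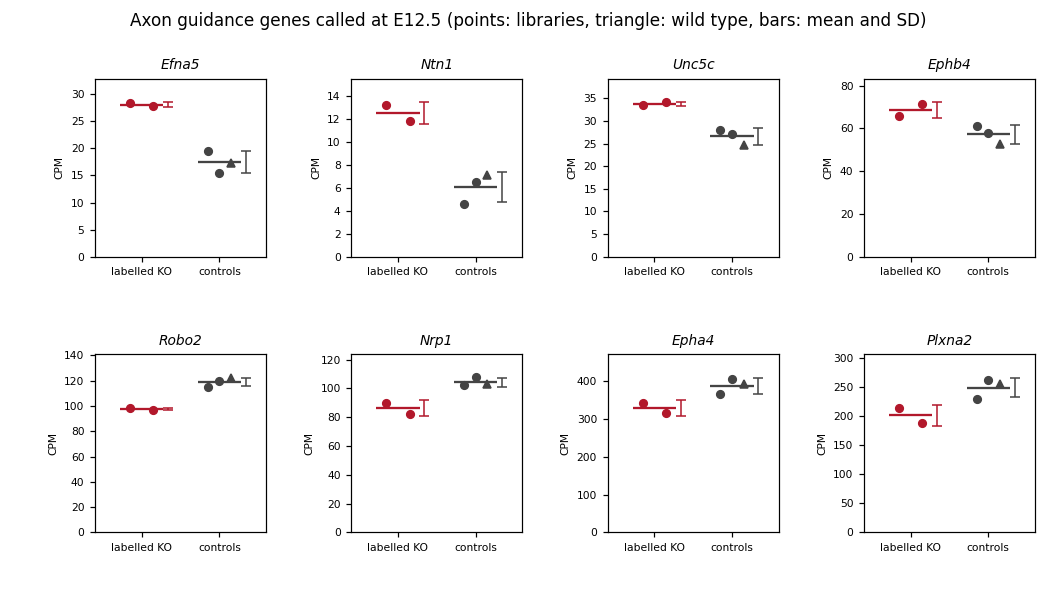
CPM of the 8 called genes in each E12.5 library, 1 panel per gene, with labelled knockout libraries (n = 2) left of the E12.5 controls (n = 3, the wild-type library as a triangle), lines at the group means and bars of 1 SD. In every panel the groups are separate, with the widest relative gap for Ntn1 at a log2 difference of 1.06.

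Promoters of genes called at E12.5 are shown as sequence context for the genes whose level differed with the L3mbtl3 label. The promoter was taken as the 250 bases upstream of the RefSeq start (GRCm38.p6), for the 2 genes per direction with the smallest adjusted p whose RefSeq start coincides with the 5′ end of the gene. Capitals mark E-boxes (CANNTG, the motif of proneural bHLH factors, searched on both strands, which is the same search as the motif is palindromic). The Efna5 promoter lies at chr17:62881318-62881567 on the minus strand. That of Ephb4 lies at chr5:137349859-137350108 on the plus strand. That of Robo2 lies at chr16:74411826-74412075 on the minus strand. That of Nrp1 lies at chr8:128358823-128359072 on the plus strand.
Efna5: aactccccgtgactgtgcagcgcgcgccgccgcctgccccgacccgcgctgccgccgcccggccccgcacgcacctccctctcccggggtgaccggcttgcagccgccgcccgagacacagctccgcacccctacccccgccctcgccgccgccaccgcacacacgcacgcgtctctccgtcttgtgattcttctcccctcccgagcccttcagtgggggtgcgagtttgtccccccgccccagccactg
Ephb4: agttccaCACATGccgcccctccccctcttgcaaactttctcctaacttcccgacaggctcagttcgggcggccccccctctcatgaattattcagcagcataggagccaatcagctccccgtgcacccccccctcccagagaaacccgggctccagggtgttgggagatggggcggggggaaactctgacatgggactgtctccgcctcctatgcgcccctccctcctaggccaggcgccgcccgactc
Robo2: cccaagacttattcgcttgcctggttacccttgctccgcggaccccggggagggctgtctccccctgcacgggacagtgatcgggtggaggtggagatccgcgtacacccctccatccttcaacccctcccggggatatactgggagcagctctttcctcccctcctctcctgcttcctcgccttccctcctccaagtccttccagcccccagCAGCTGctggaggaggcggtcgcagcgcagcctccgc
Nrp1: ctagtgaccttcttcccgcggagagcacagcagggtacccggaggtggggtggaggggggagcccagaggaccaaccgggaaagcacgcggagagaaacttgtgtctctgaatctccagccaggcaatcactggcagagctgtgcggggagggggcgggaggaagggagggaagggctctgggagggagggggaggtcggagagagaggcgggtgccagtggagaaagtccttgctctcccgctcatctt
Robo2 and Ephb4 each held 1 E-box, and in Robo2 it had the form CAGCTG. Efna5 and Nrp1 held none in this window. An E-box was found in 66.2% of 32851 promoters of this length and in 29 of the 57 guidance genes with a RefSeq entry (50.9%). CAGCTG, one form of it, was found in 13% of all promoters and in 11 of the 57 (19.3%), and CAGATG in 14.4% of all promoters and in 4 of the 57. Counts of CG dinucleotides were 32 in Efna5, 12 in Ephb4, 14 in Robo2 and 11 in Nrp1, all above the median of 6 over all promoters, while the median over the 57 was 16. A match is a description of the letters, not of a bound site.

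Among the 68 other axon guidance genes, 3 rose and 11 fell in the libraries labelled knockout (20.6% called). Over all 16361 tested genes, 3.63% rose and 3.78% fell (7.41% called). The median log2 difference of the 68 was 0.00. The lower genes were led by the axonal adhesion molecules Cntn1, with means of 7.33 ± 1.53 CPM in the libraries labelled knockout and 14.7 ± 1.77 CPM in E12.5 controls (SD, n = 2 and 3), Chl1 at -0.46, Cntn2 at -0.45 and L1cam at -0.38 on the log2 scale (edgeR adjusted p = 0.00329, 0.0125, 0.0432 and 0.0172). Pan-neuronal markers summed to 1715 to 1894 CPM in the libraries labelled knockout and 1969 to 2178 CPM in E12.5 controls (4 of 7 lower), beside the lower Robo2, Nrp1 and adhesion molecules. Ventral telencephalic markers summed to 71.7 to 90.3 CPM in the libraries labelled knockout and 37.8 to 63.3 CPM in E12.5 controls (3 of 8 higher), and choroid plexus markers to 198 to 207 CPM in the libraries labelled knockout and 491 to 572 CPM in E12.5 controls (6 of 6 lower). Intermediate progenitor markers summed to 482 to 512 CPM in the libraries labelled knockout and 579.7 to 619 CPM in E12.5 controls (3 of 5 lower), and upper-layer markers to 335 to 374 CPM in the libraries labelled knockout and 288 to 321 CPM in E12.5 controls (2 of 4 higher). The part of these cell types in the guidance results was not tested.

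All 8 called genes kept their direction in all 15 alternative settings. Efna5, Ntn1 and Robo2 were called in 14 of the 15, Nrp1 in 13, Unc5c in 12, Epha4 in 9, and Ephb4 and Plxna2 in 8 each. Fitting all 11 libraries together, so that the wider spread of the sorted cells entered, ended every call (Efna5 0.69, edgeR adjusted p = 0.824). Over all tested genes, 15 calls were left in that fit, against 1213 in the main fit. A term for embryo sex ended the calls of Unc5c, Ephb4, Nrp1, Epha4 and Plxna2. Their log2 differences were then 0.335, 0.21, -0.21, -0.17 and -0.21. The only female E12.5 library was labelled knockout replicate 2, so with this term the difference rests on labelled knockout replicate 1. Sex and the deviation of that female library cannot be told apart. The count of 8 became 5 without L3mbtl3 +/- replicate 2 and 5 without wild-type replicate 1. Over all tested genes, the 1213 calls became 673 and 603 in these fits. Without L3mbtl3 +/- replicate 1, 4 guidance genes were higher and 7 lower, among 1059 called in all. Leaving out a labelled knockout library leaves a single one, assumed in that fit to vary like the controls.

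The same genes can be read across both contrasts, which share the E12.5 controls. In pCIG2 cells, against those controls, Robo2, Nrp1 and Plxna2 were higher, at 2.75, 1.61 and 1.91 on the log2 scale. In the libraries labelled knockout, against the same controls, these receptors were lower, at -0.28, -0.27 and -0.30. Efna5, Unc5c and Ephb4 had log2 differences of -1.99, -1.92 and -1.97 in pCIG2 cells and of 0.68, 0.35 and 0.26 in the libraries labelled knockout. Ntn1 and Epha4, both not called in pCIG2 cells, had log2 differences of 0.70 and -0.56 there and of 1.06 and -0.24 in the libraries labelled knockout. Noise in the shared controls moves both contrasts the same way, so they are not independent, and no relation between them was tested.

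Raising L3mbtl3 in E15.5 cells was not accompanied by a called change in any guidance gene. L3mbtl3 itself rose by 4.49 log2 units (edgeR adjusted p = 0.00136, SE 0.217), a call that was lost without pCIG2 replicate 2 (adjusted p = 0.0539). By edgeR, 0 of the 60 genes that passed the filter were called, against 0.0136% of all 14698 tested genes, which were 2 genes (0.00680% higher and 0.00680% lower). At an unadjusted p under 0.05 there were 10 of the 60, against 8.60% of all tested genes. DESeq2 called 1 of them (Robo2) and voom with quality weights 15, against 122 and 2120 of all tested genes. The median log2 difference was -0.04 over the 60 genes and -0.03 over all tested genes.

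Of the 60 genes, 26 had a log2 difference above 0 and 34 below. The 10 genes with the smallest p, none called, were mostly receptors with somewhat higher levels. They were picked by p, so a separation of groups among them follows in part from that choice. Nrp2 stood at 30.6, 23.3 and 33.3 CPM in L3mbtl3 gain cells, against 21.0, 15.7 and 16.1 CPM in pCIG2 cells. The log2 difference of Nrp2 was 0.73 (edgeR adjusted p = 0.486, SE 0.193). Robo2 stood at 981, 1037 and 968 CPM in L3mbtl3 gain cells, against 756, 861 and 783 CPM in pCIG2 cells. The log2 difference of Robo2 was 0.33 (edgeR adjusted p = 0.486, SE 0.0881). Plxna3, Epha3, Epha7, Epha5 and Nrp1 had log2 differences of 0.33, 0.26, 0.33, 0.43 and 0.41, and the ligand Sema3a of 0.28. In Nrp1 and Epha5 the groups overlapped. The ephrins Efnb1 and Efna1 had log2 differences of -0.28 and -1.08. Efna1 stood at 0.791, 0.470 and 0.633 CPM in L3mbtl3 gain cells, against 0.956, 1.31 and 1.81 CPM in pCIG2 cells, low in every library. Beside it, endothelial and pericyte markers summed to 5.87 to 9.54 CPM in gain cells and 15.4 to 21.5 CPM in pCIG2 cells, and microglial markers to 5.33 to 7.52 CPM in gain cells and 13.8 to 32.7 CPM in pCIG2 cells, with none called and their part not tested. The edgeR adjusted p of these 10 genes ran from 0.486 to 0.566. The 8 genes called at E12.5 were not called here. Efna5 had 4.01, 4.96 and 2.42 CPM in gain cells, against 6.14, 3.44 and 3.56 CPM in pCIG2 cells. Ntn1 had 4.06, 5.58 and 1.73 CPM in gain cells, against 18.3, 9.14 and 2.08 CPM in pCIG2 cells, and the groups overlapped in both genes.

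**Figure D4:**
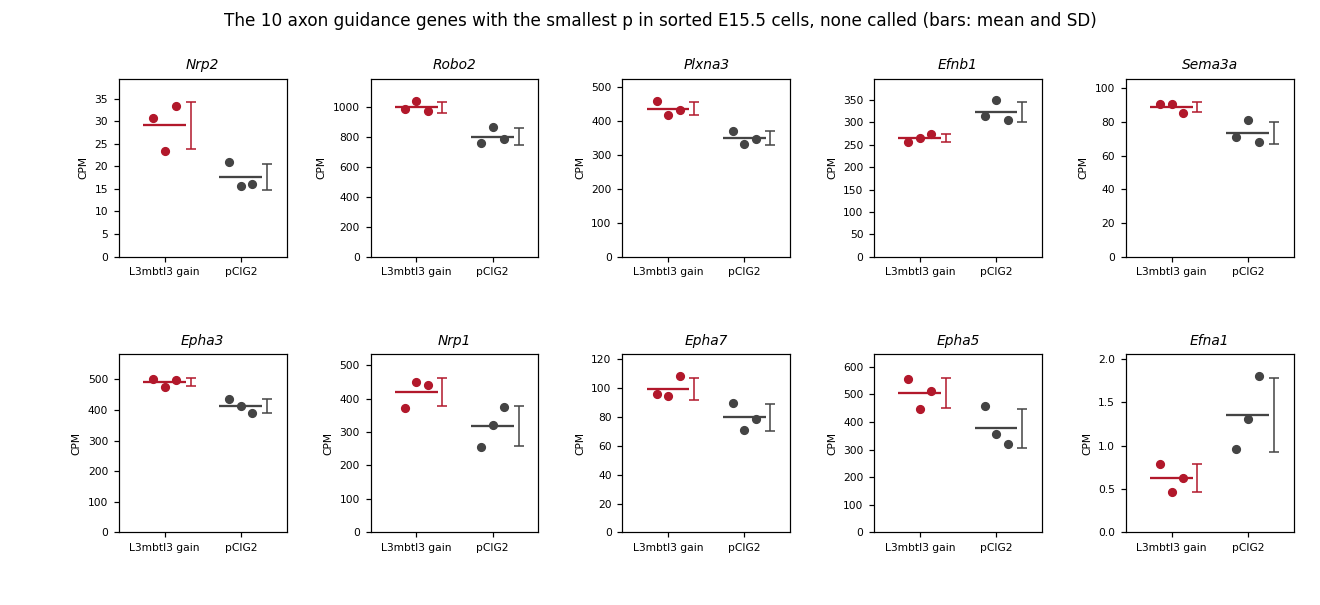
CPM of the 10 genes with the smallest p in the gain comparison, 1 panel per gene, with L3mbtl3 gain libraries (n = 3) left of pCIG2 libraries (n = 3), lines at the group means and bars of 1 SD. The groups overlap for Nrp1 and Epha5, none of the 10 was called by edgeR, and the smallest edgeR adjusted p was 0.486. The genes were picked by p, so separate groups in the other panels are not read as a result.

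In the gain comparison the log2 difference went with exon length, with a Spearman correlation across genes of 0.263 over the 14698 tested genes and 0.568 over the 60 guidance genes. Genes are not independent replicates, and no p is given. The median exon length was 6172 bases for the 60 genes and 3733 bases for all tested genes. With exon length as an offset in the fit, the log2 differences of Robo2, Sema3a, Epha5, Epha7 and Nrp2 were 0.03, 0.03, 0.16, 0.17 and 0.53. Under the same offset, Nrp1 stood at 0.35, Epha3 at 0.21, Plxna3 at 0.215, Efnb1 at -0.24 and Efna1 at -0.98. Plxna3 and Efnb1 lie on the X chromosome, and 2 of the 3 gain libraries were female. The pCIG2 libraries were all male, so with a term for sex the difference rests on gain replicate 2, the only male gain library. Sex and the deviation of the female gain libraries cannot be told apart. With this term Plxna3 and Efnb1 had log2 differences of 0.26 and -0.29, while that of Nrp2 was 0.40 and that of Epha5 0.25. Under this term Nrp1, Robo2, Sema3a, Epha3, Epha7 and Efna1 had 0.50, 0.38, 0.31, 0.21, 0.245 and -1.51. None of the 68 other guidance genes was called by edgeR (9 at an unadjusted p under 0.05, against 8.60% of all tested genes). DESeq2 called 1 of them and voom 22, against 122 and 2120 of all tested genes. On simulated counts shaped like this comparison, 50% of genes changed by 1 on the log2 scale and 75% of those changed by 2 were recovered. Leaving out pCIG2 replicate 1 called Epha5, Nrp2 and Slit2 higher, among 415 genes in all.

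Guidance genes varied widely among the pCIG2 libraries themselves. Of the 50 with a mean of at least 5 CPM there, 13 (26%) had a highest library above 2 times the lowest, against 11.8% of 10920 genes of that level. The shares were 2.04% of 49 guidance genes in gain cells (against 1.39% of all genes), 0 of 56 in the libraries labelled knockout and 0 of 57 in E12.5 controls. Of the 13, 9 were highest in replicate 1 and lowest in replicate 3, namely Epha4, Ntn1, Ntn4, Plxnc1, Sema5a, Sema5b, Sema6a, Sema6d and Slit2. Plxnc1, the Sema7a receptor, had 73.3, 38.5 and 15.6 CPM in pCIG2 replicates 1, 2 and 3, and Sema5a had 181, 135 and 71.3 CPM. Efna3 and Sema6b ran the other way, with Efna3 at 25.8, 57.8 and 87.7 CPM in the same order. Ephb1 and Slit1 were highest in replicate 1 and lowest in replicate 2. The order of replicates was not counted over all genes. Over all genes, replicates 1 and 3 were the furthest apart, at a chi-square per degree of freedom of 86.3. Replicates 1 and 2 had 28.7, and replicates 2 and 3 had 27.4.

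Cell type markers differed between the same libraries. In pCIG2 replicates 1, 2 and 3, apical progenitor markers summed to 1780.3, 1307 and 618 CPM, ventral telencephalic markers to 820.4, 262 and 14.4 CPM and pan-neuronal markers to 5569, 6159 and 7549 CPM. The gain libraries spanned 1044 to 1144 CPM for apical progenitors, 12.48 to 217 CPM for ventral cells and 6510.1 to 6648 CPM for neurons. The part of these markers in the spread of Epha4, Plxnc1 and Efna3 was not tested.

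**Figure D5:**
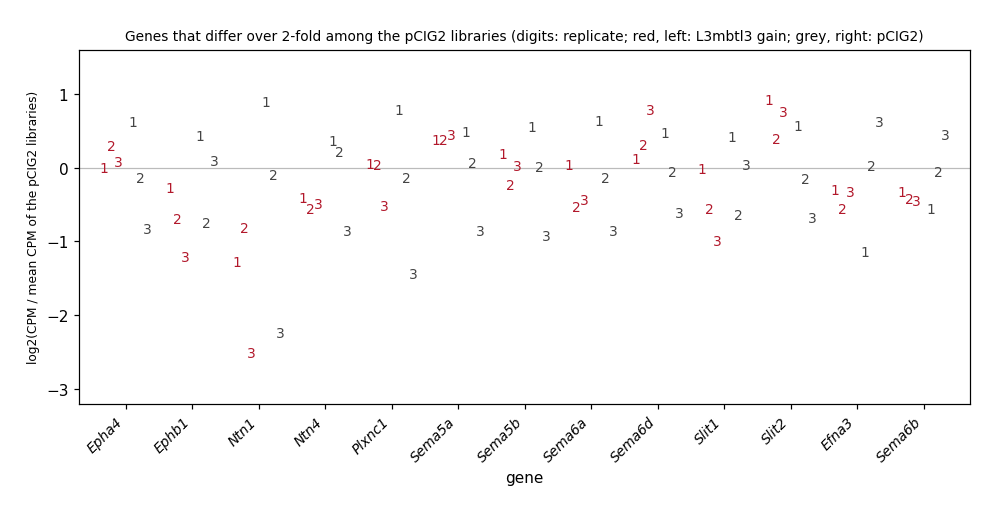
Level of the 13 guidance genes whose highest pCIG2 library exceeded 2 times the lowest, as log2 of CPM over the mean of the pCIG2 libraries, with digits for replicates, L3mbtl3 gain libraries in red on the left and pCIG2 libraries in grey on the right of each gene. Among the pCIG2 libraries, 9 genes have replicate 1 on top and replicate 3 at the bottom, and Efna3 and Sema6b the reverse. This order was not counted over all genes.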

How the data were processed

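Polyadenylated RNA was sequenced as single-end reads of 75 bases from stranded libraries, per the labels' protocols. The authors deposited raw read counts per gene, made with featureCounts 2.0.1 over exons with reversely stranded counting, per the file headers, in which no option for multi-mapping or overlapping reads was set. The submitters' processing notes named HISAT2 2.2.1, build GRCm38, SAMtools 1.9, deepTools 3.3.0, FastQC 0.11.8 and CASAVA 1.9. Which annotation release was counted is not given in the sources used here.

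Groups came from the sample titles. Symbols came from a name table (45143 of 46078 identifiers matched). Each comparison was fitted on its own libraries over all genes with edgeR 4.0.16 in R 4.3.3 (robust quasi-likelihood, TMM factors, filterByExpr), two-sided, with Benjamini-Hochberg adjustment over all genes tested, and a gene was called at an adjusted p under 0.05. The SE is the absolute log2 difference divided by the square root of F. Printed CPM values carry TMM factors over all 11 libraries. Alternatives were other scalings, no filter, DESeq2 1.42.0, voom with quality weights (limma 3.58.1), a fit of all 11 libraries, an exon length offset, a replicate block, a sex term and leaving out each library. The fit was tested on simulated data. The count over genes that passed the filter through both groups was added after the data were seen. The genes, the 68 further guidance genes, the marker lists and the tests were chosen with earlier results of these data known. The text names up to 15 called genes per direction and comparison by size of change, or the 10 with the smallest p where fewer were called, the 5 highest per kilobase in each control group, a fixed set of well-known members, and up to 4 called further guidance genes per direction. A few others are named to account for every gene. The values of 4 further guidance genes that this rule names are not reported here, though counts include them. Replicate libraries differed by more than sampling noise, with a chi-square per degree of freedom of 2.48 or more. Promoter sequences came from RefSeq (GRCm38.p6), with an entry for 57 of the 66 genes.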

Additional observations from a re-analysis of the deposited data

How the results depend on the processing

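The called genes whose log2 differences are printed above kept their direction in all alternatives. In the gain comparison the count of 0 guidance genes became 1 with DESeq2 and 15 with voom, and 0 to 3 leaving out each library. DESeq2 and voom called 122 and 2120 of all tested genes there. The 0 further guidance genes became 1 with DESeq2, 22 with voom and 1 with all 11 libraries fitted together, and 0 to 2 leaving out each library. At E12.5 the 8 called guidance genes became 18 with no filter and 0 with all 11 libraries fitted together. Over all tested genes, the 1213 calls became 2266 and 15 in these fits. Without L3mbtl3 +/- replicate 2, or without wild-type replicate 1, 5 guidance genes were called, among 673 and 603 in all. The 14 further genes there became 0 with all 11 libraries, 6 with a sex term and 7 to 16 leaving out each library. At E12.5 the sex term, and leaving out either labelled knockout library, rest on a single labelled knockout library. In the gain comparison the sex term rests on the only male gain library, replicate 2. The cause of these shifts was not tested. Between pCIG2 cells and E12.5 controls the 49 called genes became 45 to 52 leaving out each library, and the 50 further genes 45 to 55. Over all tested genes, the 9955 calls became 7793 to 11333 in the same fits. The 49 and the 50 include genes that passed the filter through a single group.

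The sign was traced only for part of the genes in each comparison. Others turned too, such as Plxnc1 in the gain comparison, from -0.511 to 0.561. Among those traced, the sign turned in these, with no reversed value called. In the gain comparison, the log2 difference was 0.176 for Efna5 with a sex term, 0.001 for Ephb4 with voom, and -0.052 and -0.050 for Plxna2 with the length offset, alone and with the replicate block. Unc5c was at -0.006 with the replicate block and length offset. Leaving out each library, Efna5 ran from -0.438 to 0.141, Epha4 from -0.158 to 0.596 and Unc5c from -0.017 to 0.579. Between pCIG2 cells and E12.5 controls, Slit1 was at -0.143 with voom, and leaving out each library, Ephb1 ran from -0.332 to 0.218 and Ntn1 from -0.121 to 1.195. The Ntn1 value of 1.195, without pCIG2 replicate 3, was called (edgeR adjusted p = 0.0139).

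The labels tie replicate numbers to no litter, batch or day. The deviations of samples with the same number correlated at 0.010 to 0.257 in the gain comparison and at -0.008 to 0.037 at E12.5, not above 0.1 in every pair, so the numbers were not taken as pairs. A replicate block called 0 guidance genes in the gain comparison, 5 at E12.5 and 53 between pCIG2 cells and E12.5 controls. Over all tested genes it called 3, 948 and 10529.

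With 2 or 3 libraries a group, small differences can be missed. The pCIG2 libraries spread widely, and the depth limits genes near 1 CPM, such as Epha1, Epha6 and Epha10.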
